A study of Mus musculus with 4 samples.

Results

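The CTCF sites described here are those of the Myc domain, a stretch of mouse chromosome 15 that holds the proto-oncogene Myc, the long non-coding RNA gene Pvt1 and a gene-poor region beyond them. They were taken from 2 deposited peak lists (build mm9, positions counted from 1) by position alone: every peak with its midpoint from 60800000 to 63800000. This gave 23 of 31086 plasmablast peaks and 19 of 36381 B cell peaks, which together make 30 sites.

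The plasmablasts were CD138+ cells sorted by flow cytometry from spleens of 6-week-old C57BL/6 mice, 3 days after a retro-orbital injection of 50 µg lipopolysaccharide (LPS), a bacterial product that activates B cells. The B cells were the CD43- fraction isolated with magnetic beads from spleens of C57BL/6 mice of the same age, with no injection named for them. CTCF-bound DNA was recovered by chromatin immunoprecipitation and sequenced (ChIP-seq), with 1 CTCF library and 1 input library per cell type. The plasmablast libraries were run on a different instrument (HiSeq 2000) from the B cell libraries (Genome Analyzer II), so instrument and cell type cannot be told apart. Each cell type had a single CTCF library, which leaves no replicates to measure error with, and no p-value was computed.

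CTCF is a zinc finger protein that binds an asymmetric DNA sequence, insulates neighbouring regions from each other and, together with cohesin, anchors chromatin loops. Myc encodes a transcription factor that drives growth and division. It is induced when B cells are activated by LPS, and it is a known target of repression by Blimp-1 as cells become plasma cells. Its expression in blood cells is known to depend on enhancers far out in the gene-poor region. In human cells a CTCF site a short way upstream of the MYC promoter has been described as a docking point for such enhancers. In mouse plasmacytomas, tumours of antibody-secreting cells, Myc and Pvt1 are recurrent sites of chromosome breakage that joins them to immunoglobulin loci.

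No mm9 gene annotation was used, so genes are placed only as far as their order allows. Myc was taken to lie from about 61.817 to 61.822 Mb, positions that carry a rounding error of 0.5 kb, and it is known to be transcribed toward higher coordinates. In the RefSeq gene table of assembly GRCm38.p6, Pvt1 is the next gene after Myc. Between Pvt1 and Gsdmc, the next protein-coding gene and a member of the gasdermin family of pore-forming proteins, the table lists 15 genes. Of these, 8 are long non-coding RNAs, 5 are pseudogenes and 0 are protein-coding. On the other side, A1bg is the nearest protein-coding gene to Myc and Lratd2 the next. Distances below are from a peak's midpoint to the nearer end of Myc, and the share of Pvt1 in them was not determined.

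Of the 30 sites, 12 were listed in both cell types (an overlap of at least 1 bp), 11 in plasmablasts only and 7 in B cells only. The shared sites were thus 52.2% of the plasmablast peaks of the domain (exact 95% binomial interval 30.6 to 73.2%) and 63.2% of its B cell peaks (38.4 to 83.7%). Over the whole lists, 79.5% of plasmablast peaks and 67.9% of B cell peaks were shared, and 20.5% of plasmablast peaks and 32.1% of B cell peaks were not. The plasmablast interval of the domain lay below the share of the whole plasmablast list, and the B cell interval contained that of the whole B cell list. The intervals cover counting error only, take peaks as independent and are no test of the domain against the rest. The depth of the libraries and the thresholds of the calls are unknown, and an unlisted site may still have been bound.

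A group at the lower end of the domain lay 367 to 883 kb below Myc, and a few peaks lay at Myc itself. Between the shared site inside Myc and the next shared site, 9 unshared sites were scattered from 177 to 1250 kb beyond Myc. A dense group lay 1611 to 1906 kb beyond Myc.

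**Figure D1:**
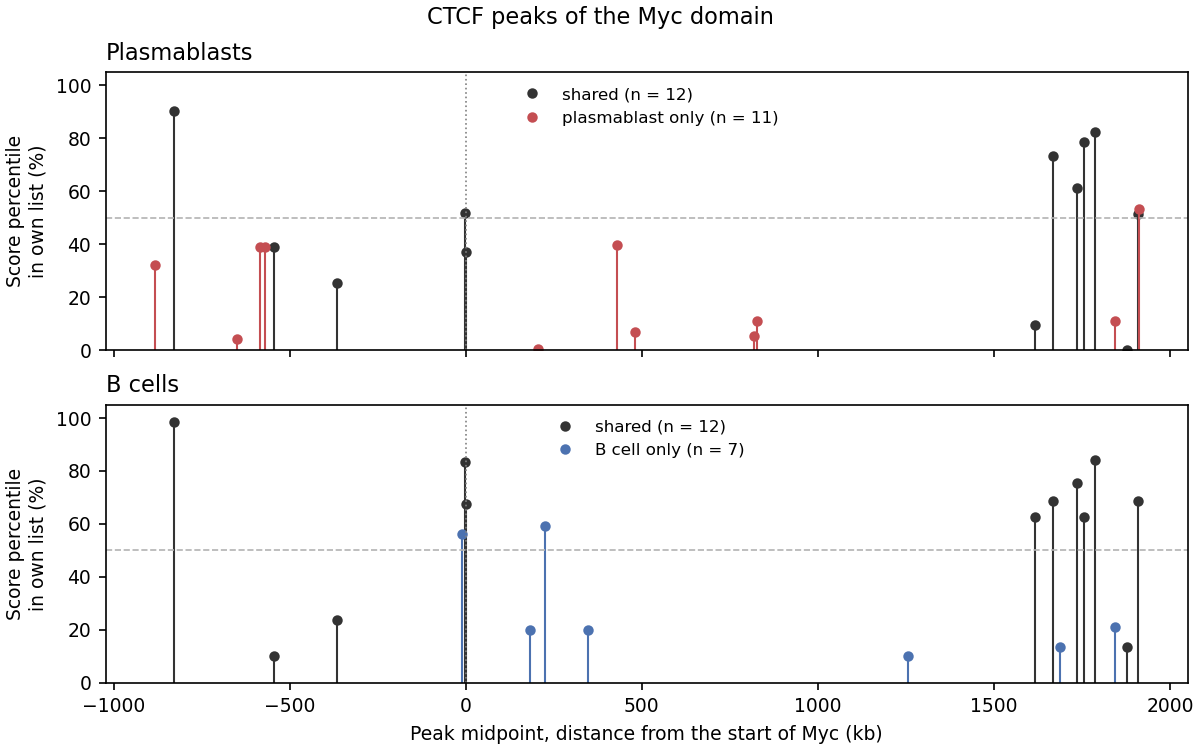
Each stem is a CTCF peak of the Myc domain, at its distance from the start of Myc (x axis, kb) and with the percentile of its score in its own list (y axis, percent), for plasmablasts (upper panel) and B cells (lower panel). Black stems are shared sites and coloured stems are peaks of that list only; the dashed line marks the median of the list, and the 2 plasmablast peaks at the far right stand on nearly the same place. The shared sites stand below, at and far beyond Myc, and the 9 sites in the wide interval between neighbouring shared sites beyond Myc are coloured.

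The peak scores are the authors' own values in an unstated unit. They are used here only to rank peaks within a list, as the percentile of a peak among all peaks of its list. The list medians were 19.4 for plasmablasts and 62.1 for B cells. The lowest score was 0.2 in the plasmablast list and 10.2 in the B cell list. Whether the lists reach down to peaks of like strength is not known.

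The site nearest to Myc on its upstream side was shared, and it ranked near the middle of the plasmablast list but well up in the B cell list. The plasmablast peak ran from 61814892 to 61815070, with its midpoint 2.02 kb below Myc, a score of 20.5 and the 51.8th percentile. The B cell peak ran from 61814805 to 61815109, with a score of 182.5 and the 83.5th percentile. The midpoints were 24 bp apart. Within the domain this site had the 7th highest score of 23 in plasmablasts and the 3rd highest of 19 in B cells.

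A site inside Myc was shared as well, 1.67 kb from the start of the gene. In plasmablasts it ran from 61818581 to 61818759, with a score of 13.5 at the 37.2nd percentile. In B cells it ran from 61818531 to 61818835, with a score of 112.1 at the 67.4th percentile. Its plasmablast peak lay below the median of its list and its B cell peak above. Both shared sites at Myc thus stood about 30 percentile points lower in plasmablasts, by 31.7 points at the upstream site and by 30.2 points inside the gene. Over all shared sites of the lists, the median of the difference, plasmablast minus B cell, was -7.2 points. More than 25 points lower in plasmablasts were 20.1% of them.

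A B cell peak stood further upstream without a plasmablast counterpart. It ran from 61806592 to 61806896, 10.3 kb below Myc, with a score of 76.9 at the 56.3rd percentile of the B cell list. The nearest plasmablast peak was the upstream site above, with a midpoint 8237 bp away. The next plasmablast peak below that site was 367 kb from Myc, leaving 364 kb with no plasmablast peak. This was the 54th widest of 1267 such plasmablast intervals on chromosome 15. Most of the same stretch was empty in B cells too, with no B cell peak between 61450554 and 61806592.

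Ranks in lists of unlike length and makeup do not by themselves show a change in binding, so the percentiles were also taken among the 24702 shared sites alone, the same set in either list. On that scale the upstream site stood at the 45.4th percentile in plasmablasts and the 75.8th in B cells, and the site inside Myc at the 30.5th in plasmablasts and the 52.8th in B cells. The differences, plasmablast minus B cell, were -30.4 and -22.3 points. Over all 24702 shared sites the median of the same difference was -0.4 and its quartiles were -13.7 and 12.4. Both sites at Myc therefore lay below the lower quartile.

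**Figure D2:**
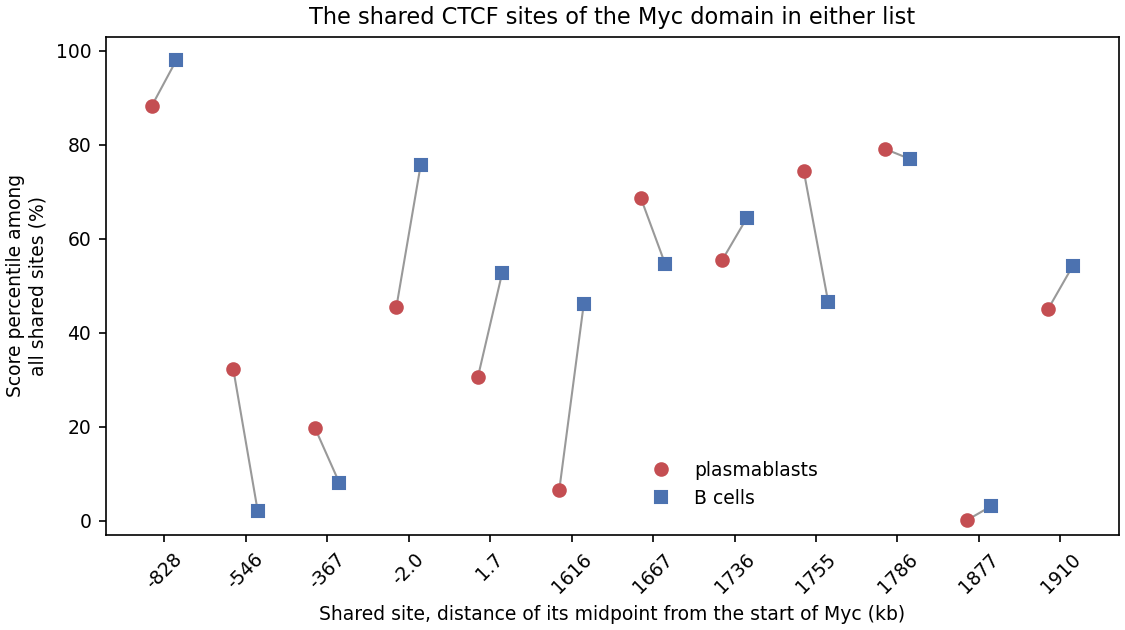
The 12 shared CTCF sites of the Myc domain, ordered along the chromosome by the distance of their plasmablast midpoint from the start of Myc (x axis, kb, not to scale). The y axis gives the score percentile among all shared sites of the list (percent), with circles for plasmablasts and squares for B cells, joined for each site. The plasmablast percentile stands furthest below that of B cells at the near end of the distal group (-39.5 points) and at Myc (-30.4 and -22.3), and furthest above it at the site 546 kb below Myc (30.2) and at the fourth site from the right (27.9).

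The lower end of the domain held its strongest site, 2 weaker shared sites and 4 peaks of plasmablasts only. The strongest peak of the domain in either list was the same site, 828 kb below Myc. It ran from 60989196 to 60989374 in plasmablasts, with a score of 55.9 at the 90.4th percentile. In B cells it ran from 60989109 to 60989413, with a score of 291.7 at the 98.6th percentile. In either list it was the only peak of the domain above the 90th percentile.

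The other shared sites of the lower end lay between this site and Myc, below the median score in both lists. The site 546 kb below Myc had a plasmablast score of 14.2 at the 39.0th percentile (61271408 to 61271586) and a B cell score of 18.5 at the 10.3rd percentile (61271276 to 61271580). Its percentile was 28.7 points higher in plasmablasts, the only such difference above 25 points in the domain on the scale of the whole lists, where 5.76% of all shared sites passed it. Among shared sites only, this site was 30.2 points higher in plasmablasts, and a site of the distal group also passed 25 points. The site 367 kb below Myc had a plasmablast score of 9.8 at the 25.5th percentile (61450249 to 61450427) and a B cell score of 26.9 at the 23.7th percentile (61450250 to 61450554).

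The 4 plasmablast only peaks around these stood at 570, 584, 650 and 883 kb below Myc. Their scores were 14.2, 14.2, 5.0 and 11.7, all below the median of the plasmablast list. The plasmablast list had 7 peaks in this group. The B cell list had only 3, all of them shared. Over the whole lists, 20.5% of plasmablast peaks and 32.1% of B cell peaks were unshared.

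Beyond Myc, the interval up to the dense distal group held 9 sites, 5 in plasmablasts only and 4 in B cells only. It was bounded by neighbouring shared sites, so the lack of a shared site inside it follows from its bounds. Over the whole lists, 20.5% of plasmablast peaks and 32.1% of B cell peaks were unshared. Of the 9 sites, 1 lay above the median score of its list, a B cell peak. From the plasmablast peak inside Myc to the next shared site there were 1614 kb, the 5th widest of 1038 such intervals between neighbouring shared sites on chromosome 15, whose median was 26.0 kb. The plasmablast and B cell peaks in it were placed apart from each other, with at least 20077 bp between the nearest midpoints of the lists.

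The 3 plasmablast peaks nearest to Myc on this side were below the median score of their list. They lay 200 kb (62021451 to 62021629, score 3.2), 423 kb (62245354 to 62245532, score 14.6) and 475 kb (62296671 to 62296849, score 5.7) beyond Myc. They stood at the 0.5th, 39.9th and 6.9th percentiles of the plasmablast list. A pair of further plasmablast peaks, at 813 and 823 kb, scored 5.3 and 6.6, and the nearest B cell midpoint was more than 427 kb away from either.

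The 3 nearest B cell peaks on this side included a stronger one. It lay 220 kb beyond Myc (62041465 to 62041769) with a score of 85.2 at the 59.3rd percentile, and the nearest plasmablast midpoint was 20077 bp away. The 2 others, 177 kb (61998445 to 61998749) and 341 kb (62162760 to 62163064) beyond Myc, both scored 24.1 at the 19.8th percentile. The last B cell peak of this interval lay 1250 kb beyond Myc and scored 18.5 at the 10.3rd percentile.

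The widest interval with no peak was 788 kb in plasmablasts, from 62644925 to 63433225, and 909 kb in B cells, from 62163065 to 63072202. The plasmablast interval was the 20th widest of 1267 on chromosome 15, where the median was 22.1 kb. The B cell interval was the 15th widest of 1563, where the median was 17.5 kb. No peak of either list lay in the 427 kb from 62644925 to 63072202.

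The distal group began beyond these intervals and held 9 peaks of each list in 295 kb. In plasmablasts it ran from 63433226 to 63727803 and in B cells from 63433181 to 63727455. There were 7 shared sites, 2 plasmablast only peaks and 2 B cell only peaks. The shared part, 7 of 9 in each list, was near that of the whole plasmablast list (79.5%). The share of the whole B cell list was 67.9%. Of the 9 peaks, 6 lay above the median score of the list in plasmablasts and 6 in B cells. Enhancers that drive Myc in blood cells are known from the far end of the gene-poor region, but their mm9 positions were not used and no peak was assigned to them.

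The strongest site of the distal group was the same in both lists and second in the whole domain. It lay 1781 kb beyond Myc, with a score of 45.4 at the 82.6th percentile in plasmablasts (63603241 to 63603419) and of 186.2 at the 84.3rd percentile in B cells (63603172 to 63603476). Its midpoints were 6 bp apart, the closest of the 12 shared sites. Its percentile differed by -1.7 points between the lists, less than at the sites at Myc.

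Next in plasmablasts came the site 1750 kb beyond Myc, with a score of 40.9 at the 78.5th percentile (63572220 to 63572398), and in B cells it had 95.4 at the 62.7th percentile (63572224 to 63572528). Among shared sites only it stood 27.9 points higher in plasmablasts, at the 74.4th percentile, against the 46.5th in B cells. The site at 1662 kb scored 36.1 at the 73.4th percentile in plasmablasts (63484188 to 63484366) and 116.7 at the 68.7th in B cells (63484160 to 63484464). The site at 1731 kb scored 26.7 at the 61.4th percentile in plasmablasts (63553364 to 63553542) and 145.4 at the 75.6th in B cells (63553263 to 63553567). With the strongest sites of the lower end and of the distal group, these made up the 5 highest scoring plasmablast peaks of the domain. The 5 highest B cell peaks shared 4 of these sites and had the site upstream of Myc in place of the one at 1750 kb.

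The site at the near end of the distal group had the widest difference of the domain. In plasmablasts it ran from 63433226 to 63433404, with a score of 6.2 at the 9.4th percentile. In B cells it ran from 63433181 to 63433485, with a score of 94.5 at the 62.5th percentile. The difference was -53.1 points, or -39.5 among shared sites only. It lay 1611 kb beyond Myc.

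Toward the far end, the shared site 1872 kb beyond Myc was weak in both lists, with a score of 2.7 at the 0.2nd percentile in plasmablasts and of 20.4 at the 13.6th in B cells. The last shared site, at 1905 kb, scored 20.3 at the 51.5th percentile in plasmablasts (63727226 to 63727404) and 115.8 at the 68.5th in B cells (63727151 to 63727455). Beside it the plasmablast list had another peak, from 63727625 to 63727803, with a score of 21.5 at the 53.5th percentile. That peak was 411 bp from the B cell midpoint and did not overlap the B cell peak. A weak pair 1838 to 1839 kb beyond Myc lay close together without overlapping. Its plasmablast peak stood at percentile 11.1 (63660623 to 63660801) and its B cell peak at percentile 21.1 (63660127 to 63660431), with midpoints 433 bp apart. The other B cell only peak of the group, at 1684 kb, scored 20.4 at the 13.6th percentile, and the nearest plasmablast midpoint was 21864 bp away.

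**Figure D3:**
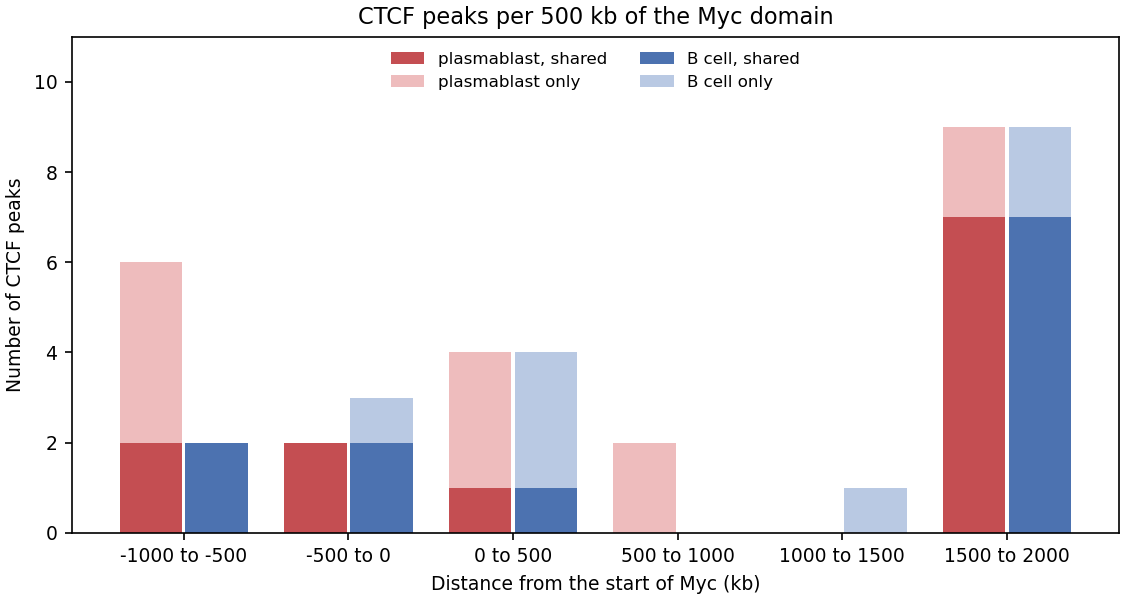
Number of CTCF peaks (y axis) in steps of 500 kb from the start of Myc (x axis, kb; the domain ends inside the last step), with plasmablast bars left of B cell bars. Dark parts are shared peaks and pale parts peaks of that list only. The last step holds 9 peaks of each list, 7 of them shared, and the 2 steps before it hold no shared peak.

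Across the 12 shared sites the percentile was higher in plasmablasts at 4 and lower at 8, and the difference, plasmablast minus B cell, had a median of -10.8 points with a range of -53.1 to 28.7. Over all shared sites of the lists the median was -7.2 and the quartiles -21.3 and 4.3. More than 25 points lower in plasmablasts were 3 of the 12, the 2 at Myc and the near end of the distal group, against 20.1% of all shared sites. Among shared sites only, the median of the domain was -5.9 points, with 5 sites higher and 7 lower in plasmablasts. On that scale 2 of the 12 were more than 25 points lower (against 11.9% of all shared sites) and 2 more than 25 points higher (against 11.7%). The site inside Myc was no longer among the lower ones. The scores of the 12 sites had a Spearman rank correlation of 0.78 between the lists, against 0.70 over all 24702 shared sites. These are correlations across sites of the same 2 libraries.

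The unshared peaks were mostly weak. Scores of the 11 plasmablast only peaks had a median of 6.6 (range 3.2 to 21.5) and a median percentile of 11.1, and 1 of them was above the median of its list, the peak at the far end of the distal group. The 7 B cell only peaks had a median score of 24.1 (18.5 to 85.2) and a median percentile of 19.8, and 2 were above the median of their list, the peaks 10.3 kb below and 220 kb beyond Myc. Of all unshared peaks, 24.9% of those in the plasmablast list and 9.1% of those in the B cell list were above the median of their list. Over the whole lists, unshared peaks had median percentiles of 27.3 in plasmablasts and 19.8 in B cells. In the domain, 9 of the 11 plasmablast only and 5 of the 7 B cell only peaks were more than 10 kb from any peak midpoint of the other list, against 52.1% of all unshared plasmablast and 60.1% of all unshared B cell peaks. The peaks of either list, shared and unshared together, were spaced more widely in the domain. The median gap between neighbouring peaks was 53.1 kb in plasmablasts, against 22.1 kb on chromosome 15. In B cells it was 48.8 kb, against 17.5 kb. The part of this spacing in the distances between the lists was not tested.

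Sharing differed with the rank of the peaks. Of the plasmablast peaks of the domain, 8 of 23 (34.8%) were above the median score of their list, and 7 of these 8 were shared (87.5%, against 89.8% of such peaks in the whole list). Of the 15 others, 5 were shared (33.3%, interval 11.8 to 61.6%, against 69.2% in the whole list). Of the B cell peaks, 11 of 19 (57.9%) were above the median, and 9 of these were shared (81.8%, against 94.1% in the whole list). Of the 8 others, 3 were shared (37.5%, against 42.0%). The part that the low ranks of these plasmablast peaks have in their shared percentage was not tested.

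The domain was sparser in peaks than the lists as a whole, with 7.67 plasmablast and 6.33 B cell peaks per Mb, against 12.1 plasmablast and 14.2 B cell peaks per Mb over the whole lists. It held 4 more plasmablast than B cell peaks although the plasmablast list was shorter. Among peaks above the median score of their lists the order turned, with 8 plasmablast and 11 B cell peaks. The neighbouring 3 Mb on the lower side held 44 plasmablast and 67 B cell peaks, and those on the upper side 24 plasmablast and 35 B cell peaks. In the lower and the upper neighbour, in that order, 81.8% (67.3 to 91.8%) and 83.3% (62.6 to 95.3%) of the plasmablast peaks were shared, both above the domain's 52.2%. Of the B cell peaks 53.7% (41.1 to 66.0%) and 57.1% (39.4 to 73.7%) were shared, both below the domain's 63.2%. The upper neighbour had nearly as few plasmablast peaks per Mb as the domain, 8.0. These comparisons are descriptions of 1 library each, with no test.

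The bounds of the domain fell in open stretches. The last peaks outside its lower bound, 136 kb from it in plasmablasts (score 4.8) and 143 kb in B cells (22.2), were both unshared. The first peaks inside were 134 kb from the bound in plasmablasts (11.7) and 189 kb in B cells (291.7). At the upper bound the last peaks inside were 72.3 kb from it in plasmablasts (21.5) and 72.7 kb in B cells (115.8), and the first outside were 50.6 kb from it in plasmablasts (8.0) and 39.4 kb in B cells (38.9).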

How the data were processed

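CTCF ChIP-seq peaks of splenic plasmablasts and splenic B cells were analysed, 1 deposited list per cell type. The submitters' processing notes name Bowtie, HOMER and the mouse build mm9. How the input entered the calls, the thresholds and the versions: not given in the sources used here. Each deposited peak score has no stated unit, and the libraries' depth is unknown. Input libraries were not analysed here. Peaks were 179 bp wide in plasmablasts (all but 1) and 305 bp in B cells.

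Starts were read as BED and 1 was added. Peaks sharing at least 1 bp were called shared, checked with bedtools 2.31.1 and tested on simulated data. Percentiles count the peaks of a list with a lower score, ties split evenly. Shares have exact Clopper-Pearson 95% intervals. Alternatives were other overlap rules (50% reciprocal overlap, midpoints within 100 or 500 bp), stricter or equally long lists, other bounds and other sets for the percentiles. Described in full are the 3 peaks of each list nearest to Myc on each side, the 5 highest scoring, unshared peaks above the list's median, and shared sites more than 25 percentile points apart. The domain and this rule were chosen with earlier results of these data known. The motif search that was planned needed sequence of the peaks, which was not used here. Python 3.11.15 was used with scipy 1.17.1, pandas 2.3.3, numpy 2.4.6 and matplotlib 3.10.9.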

Additional observations from a re-analysis of the deposited data

How the results depend on the processing

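Of 17 alternatives, 15 gave values within the counting interval, within 1.5 times the count or within 5 percentile points of the reported value. The counting intervals were wide, 30.6 to 73.2% for plasmablast and 38.4 to 83.7% for B cell peaks, so a value inside them says little. The 12 shared sites had midpoints at most 69 bp apart, so the rule of 100 bp could drop none of them. The shared percentage of plasmablast peaks, 52.2% over all listed peaks of the domain, was 87.5% for the 8 peaks scoring above the median of the plasmablast list. The number of plasmablast minus B cell peaks, 4 over all listed peaks, was reversed to -3 among peaks above the median scores (8 plasmablast and 11 B cell peaks) and was 6 with the 30000 highest scoring peaks of each list (21 plasmablast and 15 B cell peaks). With midpoints within 500 bp in place of an overlap, 60.9% of the plasmablast and 68.4% of the B cell peaks were shared; 50% reciprocal overlap and midpoints within 100 bp gave the same percentages as 1 bp. Within 1 Mb of Myc, 35.7% of 14 plasmablast and 55.6% of 9 B cell peaks were shared. The cause of the values that moved was not tested. No paired analysis was possible because the cell types have no replicate libraries, and for the same reason none was left out. Depth is unknown, so weak peaks limit every statement on sites listed in 1 cell type.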

Other observations

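Chromosome 15 was laid out in 32 other stretches of 3 Mb, end to end with the Myc domain, a layout chosen after earlier results were known. The Myc domain held 23 plasmablast peaks, against a median of 26 in these stretches (2 to 123), and 19 B cell peaks, against a median of 33 (0 to 149). Fewer plasmablast peaks than in the domain were found in 14 of the stretches, as many in 1 and more in 17. For B cell peaks, 11 stretches held fewer and 21 more. Of the 32 stretches, 8 held more plasmablast than B cell peaks, as the Myc domain did, and 24 held fewer. Of the 25 stretches with at least 10 plasmablast peaks, 1 had a lower shared percentage of plasmablast peaks than the domain's 52.2%; the median of the 25 was 81.1% and the range 41.7 to 100%. For B cell peaks 11 of 25 such stretches lay below the domain's 63.2%, with a median of 64.0%. The stretches are parts of the same 2 libraries and no test was made of them.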
